A study of Mus musculus with 40 samples.

Results

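The genes described here lay higher in ES cells 48 or 72 hr after repression of Pou5f1 than both before repression and at 120 hr. They were chosen on the normalized log10 table that the authors deposited for the late arrays. The 3 arrays of each time were averaged, and a gene probe was kept where the larger of its 48 and 72 hr means exceeded the 0 hr mean and the 120 hr mean by at least 0.176, that is by 1.5-fold. This gave 149 of the 16292 gene probes in that table, or 0.915%, and they are called members below. Of the 149 members, 133 carried a gene symbol, each a different one, and 16 are known here only by the name of the probe or its transcript. The array itself holds 21052 gene probes.

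The study asked which genes respond to loss of the pluripotency factors Pou5f1, Sox2 and Nanog, and RNA of mouse ES cells was measured on 2-color arrays. ZHBTc4 cells (129/Ola) lack both endogenous copies of Pou5f1 and live on a Pou5f1 transgene that tetracycline (Tet) shuts off, and this holds for the 0 hr cells as well. They were measured without Tet (0 hr) and daily from 24 hr to 120 hr of Tet with 3 arrays per time (18 late arrays, NIA Mouse 22K Dev2) and, in a separate experiment, without Tet and after 3, 6, 12 or 24 hr of it with 2 arrays per time (10 early arrays, NIA Mouse 44K v2.2). In the Nanog experiment, a clone with an episomal Nanog transgene (129Sv), a clone with an integrated one (Nanog/EF1#6, 129SvEv-Tac), and the lines MG1.19 (129Sv) and ES 129.3 (129SvEv-Tac) were kept for 3 days in LIF, in no LIF, or in LIF plus 1 uM retinoic acid (RA), with 1 array for each line and medium (12 arrays, NIA Mouse 44K v2.1). For the early arrays the paper gives passages on gelatin to remove feeder cells, and the lines of the Nanog experiment were passaged on gelatin too. RNA of the late arrays came from an earlier experiment, for which the paper does not state this step. Each transgenic line is a single clone, the labels and the paper name the parental lines differently, and although the titles of the late arrays give ZHBTc4 with Tet, their treatment text speaks of another construct and line. Each array paired a Cy3 labeled sample with the Universal Mouse Reference, in Cy5. A value below is log2(Cy3/Cy5) after background correction and loess, so it can be compared between arrays for the same probe but not between probes. No source says that arrays of 1 time came from separate cultures, so p-values measure only the spread between these samples.

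Pou5f1 (Oct4) is a POU domain factor that keeps ES cells undifferentiated, and mouse ES cells that lose it flatten and turn on trophoblast genes. Trophoblast cells can leave the division cycle and become giant cells, which copy their DNA without dividing. RA, a ligand of nuclear receptors, drives ES cells mostly towards endoderm and neural fates even with LIF present, and LIF is the cytokine that holds ES cells in self-renewal through Stat3. RNA of whole cultures was measured, so fewer cells of a type and less RNA per cell cannot be told apart.

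The targeted gene followed the labels. On the late arrays the Pou5f1 probe read 1.91, 2.40 and 2.04 at 0 hr and between -0.30 and 0.12 on the arrays with Tet. The change from 0 hr was between -2.18 and -2.07 (SE 0.109, adjusted p from 2.41e-10 at 24 hr to 3.58e-11 at 96 hr, limma). On the early arrays the probe of the same sequence read 2.92 and 1.52 at 0 hr, 0.29 and 0.48 at 3 hr, then -0.53 and -0.61 at 24 hr, while a second Pou5f1 probe read 3.97 and 3.97 at 0 hr and 3.46 and 3.38 at 24 hr. In the Nanog experiment RA brought the first probe to between 0.49 and 0.82 in 3 lines from 2.14 to 2.81 with LIF, and left it at 2.41 in the integrated Nanog clone.

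Most members lay highest at 24 or 48 hr rather than at 72 hr. On the scanner values the highest of the 6 means was that at 24 hr in 71 members, at 48 hr in 63, at 72 hr in 13, at 96 hr in 1 and at 0 hr in 1. On the table that chose the members the counts were 62, 72, 14, 1 and 0. At 24 hr 93 members already lay 1.5-fold or more above their 0 hr mean, which the rule chose to be low. On the log2 scale the median member lay 0.71 above its 0 hr mean at 24 hr, 0.70 at 48 hr (quartiles 0.54 and 0.89), 0.40 at 72 hr and 0.096 at 96 hr, and -0.21 at 120 hr. The median of all probes in the table stayed between -0.0058 and 0.0092 at every time. The median member was thus as high at 24 hr as at 48 hr, and lower at each later time. After it the members went apart: 12 still lay 1.5-fold or more above 0 hr at 120 hr, among them Fgfbp1, Ccn1, Gpx1 and Insig1, while 28 lay 1.5-fold or more below it, among them Tcstv3, Zscan4c and Myh6. The rule used the 0, 48, 72 and 120 hr arrays, so values at these times, and every change from 0 hr, carry no test here.

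**Figure D1:**
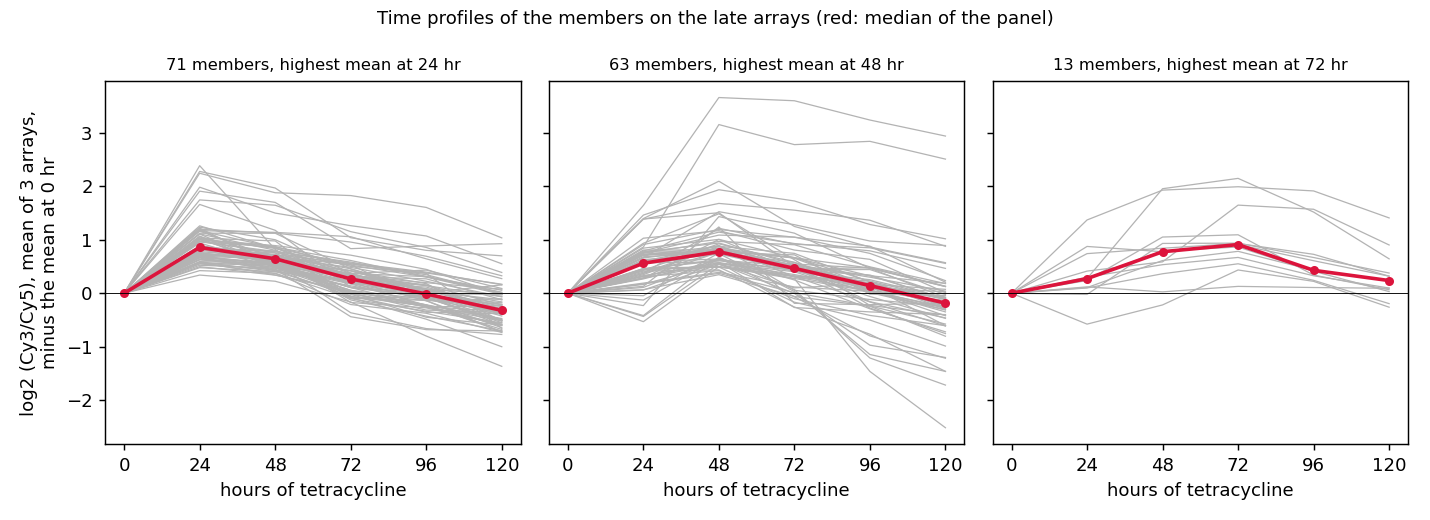
Profiles of the members on the late arrays, as the mean log2(Cy3/Cy5) of 3 arrays minus the mean at 0 hr (vertical axis) against hours of Tet (horizontal axis), split by the time of the highest mean. Grey lines are members and the red line is the median of the panel. The members with the highest mean at 24 hr (71), 48 hr (63) and 72 hr (13) share a return towards or below the 0 hr level at 120 hr, which follows from the rule that chose them. The 2 members with their highest mean at another time are not drawn.

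Of 130 members with a value on every array needed, 125 had all 3 arrays of the higher time above every 0 hr and every 120 hr array, against 7.17% of the 15605 table probes, but the rule used these arrays. The rule has a sharp edge in a dense range of values. Just inside lie Arhgdig and L02241 with a margin of 0.177 and Gca with 0.1771, and just outside lie Sdhd with 0.1759, Lsm8 with 0.1753 and Cdca3 with 0.1751. At 2-fold 20 members remain, and on the scanner values 129 probes pass the same rule, of which 93 are members. Ccdc28a and the transcript XM_141227 are members only through a single array in the deposited table. Ccdc28a has 3.93 on an array at 72 hr and 2.20 to 2.32 on the others, XM_141227 has 3.98 on an array at 48 hr and 2.75 to 2.81 on the others, and on the scanner values their 48 or 72 hr means exceeded the higher of the 0 and 120 hr means by -0.09 and 0.04. At 0 hr 8 members did not exceed 95% of the negative controls on any of the 3 late arrays. They were Cxcl10, Asb9, Fbn2, Dkk1, Pdzrn3, Mov10l1, Nefm and Ccdc28a. For this reason the text prints no fold from 0 hr on the late arrays for any of them. Late changes from 0 hr of such members do enter the medians over members and the plots of changes from 0 hr, where they are uncertain. The signal at the negative control limit was higher at 0 hr (627 to 653 units) than at later times (506 to 571 units). Its part in the result was not tested. Between 0 hr and the higher time the median member changed by 0.63 in Cy3 and 0.12 in the Cy5 reference on the log2 scale.

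Prominence is the larger of the 48 and 72 hr means minus the larger of the 0 and 120 hr means on the log2 scale. As measured, it was greatest for Klk7, a secreted serine protease of the kallikrein family. Cxcl10 lay under the negative controls at 0 and 120 hr, so its prominence cannot be ranked against the others. Klk7 read -0.00084, 0.04 and 0.15 on the 0 hr arrays, 1.49, 1.47 and 1.42 at 24 hr, 2.21, 2.19 and 2.06 at 48 hr, then 0.64, 0.61 and 0.64 at 120 hr. The 48 hr arrays were thus the highest of all 18, and the 120 hr arrays still lay above the 0 hr ones (prominence 1.52). Next came Calcoco2, an autophagy receptor, with 3.83, 4.14 and 4.41 at 0 hr, 5.85, 5.55 and 5.49 at 48 hr, then 3.37, 3.34 and 3.40 at 120 hr. Its 24 hr arrays, at 5.46 to 5.54, were within the range of the lower 48 hr arrays or just under it, and at 120 hr it lay below its start.

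Cxcl10, a chemokine induced by interferon, behaved differently from these. It read -2.56, -2.39 and -2.74 at 0 hr and -2.21, -2.46 and -2.20 at 24 hr, then -0.55, -0.58 and -0.70 at 48 hr and -0.44, -0.38 and -0.43 at 72 hr. Its arrays at 24 hr overlapped those at 0 hr, and those at 72 hr were the highest. At 120 hr it read -1.93, -1.86 and -1.97, where all 3 arrays, like those at 0 hr, were under the negative controls. Cidea, a protein of lipid droplets known from brown fat, read 1.26, 1.21 and 1.44 at 0 hr, 2.86, 2.81 and 2.70 at 48 hr, then 0.76, 0.99 and 0.94 at 120 hr, with no overlap between these times (1.48). Hs3st3b1, an enzyme that sulfates heparan sulfate chains, read 0.28, 0.19 and 0.41 at 0 hr, was highest at 24 hr with 2.47, 2.61 and 2.63, and read 0.86, 1.06 and 1.06 at 120 hr (1.27).

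The other members among the 15 most prominent span unlike functions. Fhl1, a LIM protein of muscle, was at 0.69, 0.84 and 1.24 at 0 hr and at 2.59, 2.95 and 2.46 at 24 hr (1.26). Asb9, an adaptor of ubiquitin ligases, was high at a single time: it read 1.55, 1.52 and 1.47 at 48 hr and no more than 0.42 on any other array. Vim, the intermediate filament of mesenchymal cells, read -4.14, -4.31 and -3.95 at 0 hr, -2.26, -2.27 and -2.88 at 24 hr, -2.96, -3.03 and -2.89 at 48 hr, then -4.15, -3.93 and -4.00 at 72 hr, so that it had returned by 72 hr (1.02). Beside Vim, the summed level of the other 27 fibroblast and feeder genes in the table went from 62067 to 71620 at 0 hr down to 34302 to 36885 at 24 hr. It was back at 56153 to 61868 at 72 hr, in linear units of the table. The brightest genes weigh most in such a sum. Of the 28 genes with Vim, 2 were called higher and 3 lower at 24 hr than at 0 hr (limma), and 3 higher and 3 lower at 48 hr. The part of these genes in the values of Vim was not tested. Genes of iron and metal handling were represented by Fth1, the heavy chain of ferritin, with a mean of -2.31 ± 0.24 (SD, n = 3) at 0 hr and -1.07 ± 0.14 at 24 hr, and by the metallothionein Mt2, which was highest at 72 hr with 1.43, 1.42 and 1.42. Mt2 kept only 1 array at 0 hr (0.33) and Fdps, a synthase of isoprenoid precursors, only 1 at 48 hr (0.53), because the scanner software called the other spots outliers. The remaining ones were LOC666185 (1.31), the prostaglandin reductase Ptgr1 (1.12), the spindle and kinetochore protein Ska2 (1.01) and the G protein subunit Gng10 (0.99). Fth1 has many near-identical copies in the genome, so its probe is an uncertain measure of the gene.

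**Figure D2:**
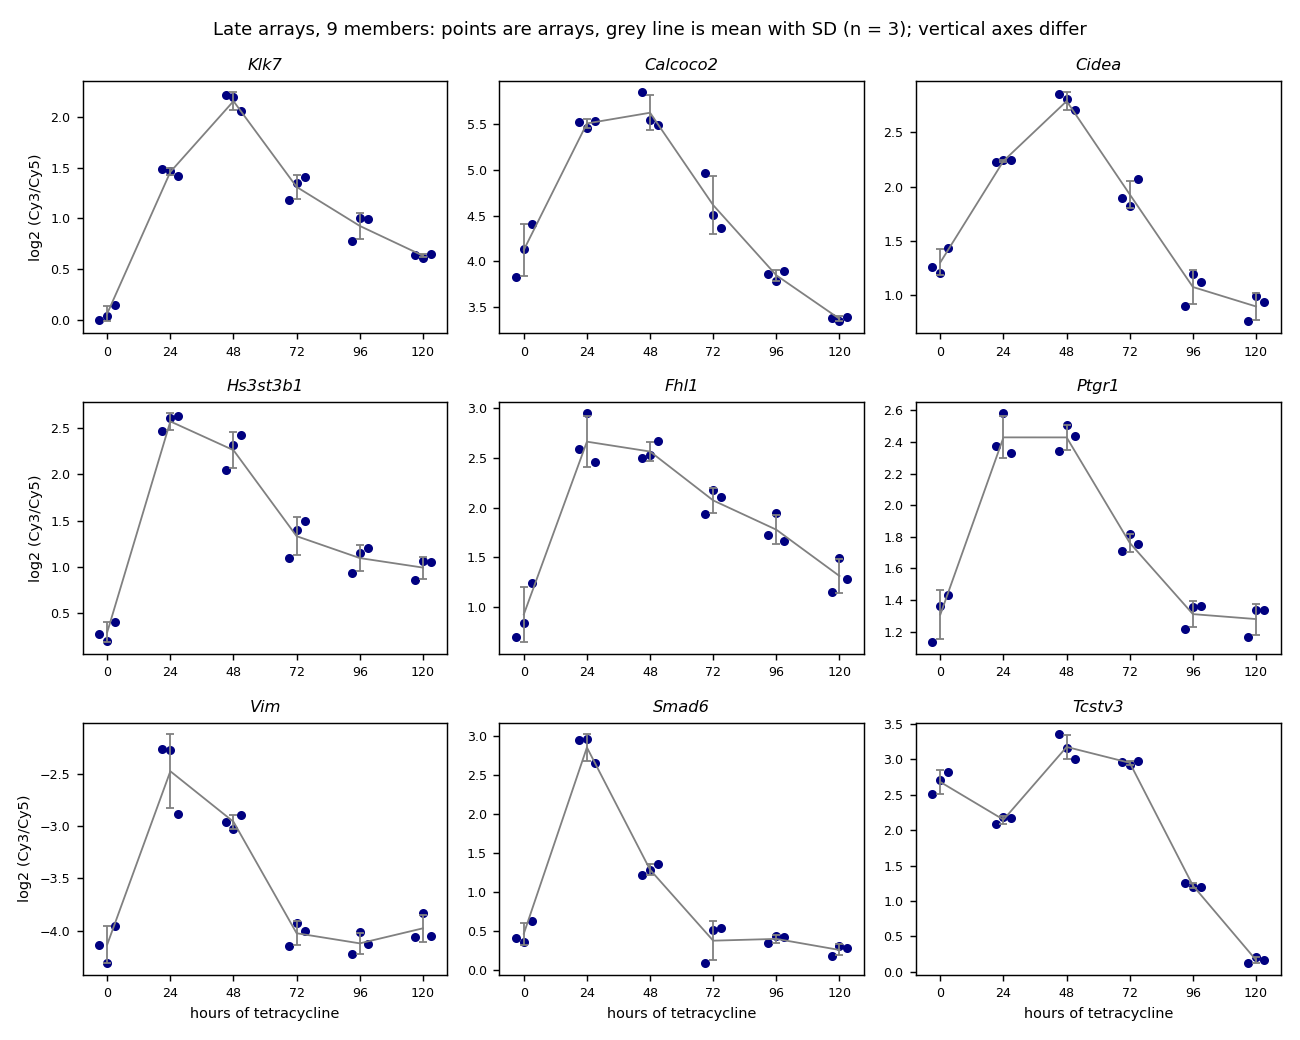
Values of 9 members on each late array, as log2(Cy3/Cy5) (vertical axes, which differ) against hours of Tet; points are arrays and the line joins means with their SD (n = 3). Klk7, Calcoco2, Cidea and Tcstv3 have their highest mean at 48 hr, Smad6 goes from 2.85 at 24 hr to 1.29 at 48 hr, and Vim is back at its 0 hr level by 72 hr.

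The promoters of 3 of these members are shown because their genes have unlike profiles and their sequences hold different short motifs. They are RefSeq sequences (GRCm38.p6) from 250 bases before to 50 bases after the start, in the direction of the gene, with motif letters in capitals. Klk7 lies at chr7:43811044-43811343 on the + strand and holds the GATA letters AGATAA once. Cxcl10 lies at chr5:92348840-92349139 on the - strand and holds AGATAA and, read on the reverse strand, the AP-1 letters TGACTCA. Hs3st3b1 lies at chr11:63922235-63922534 on the - strand and holds, on the reverse strand, the octamer letters ATGCAAAT that Pou5f1 is known to bind.
Klk7: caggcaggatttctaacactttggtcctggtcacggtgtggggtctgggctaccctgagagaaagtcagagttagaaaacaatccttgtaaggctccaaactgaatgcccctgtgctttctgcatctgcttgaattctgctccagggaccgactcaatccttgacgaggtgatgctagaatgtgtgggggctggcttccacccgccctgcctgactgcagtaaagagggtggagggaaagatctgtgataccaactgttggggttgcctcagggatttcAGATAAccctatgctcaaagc
Cxcl10: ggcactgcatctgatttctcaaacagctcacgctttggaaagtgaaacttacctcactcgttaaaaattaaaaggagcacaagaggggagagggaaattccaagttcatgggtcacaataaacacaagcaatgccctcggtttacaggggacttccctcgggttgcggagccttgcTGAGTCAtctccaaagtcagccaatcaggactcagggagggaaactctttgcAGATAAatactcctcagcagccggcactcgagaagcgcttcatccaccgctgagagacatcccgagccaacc
Hs3st3b1: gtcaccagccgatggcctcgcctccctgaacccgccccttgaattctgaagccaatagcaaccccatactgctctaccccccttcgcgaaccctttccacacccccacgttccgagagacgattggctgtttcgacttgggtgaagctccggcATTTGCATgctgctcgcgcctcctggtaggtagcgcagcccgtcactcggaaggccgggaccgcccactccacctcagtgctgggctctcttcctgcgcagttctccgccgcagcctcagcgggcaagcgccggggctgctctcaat
Both strands of 113 member promoters were searched, and those of all 27025 promoters of the same length. AGATAA was found in 7 members (6.19%) and 11.4% of all promoters, the TEAD letters GGAATG in 10 (8.85%) and 14.6%, and AGGTCA, the short site of nuclear receptors, in 12 (10.6%) and 16%. TGACTCA was found in 5 (4.42%) and 5.17%, and ATGCAAAT in Hs3st3b1 alone (0.885%) and 1.75%. A match is a run of letters and not a binding site.

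Only 28 members belong to any of the gene lists used for this series, families of like names aside, and 121 belong to none. The cell cycle list gave the most, with 6 of its 46 genes in the table: the cyclins Ccna2 and Ccne1, the phosphatase Cdc25a, the licensing factor Cdc6, the activator of mitotic exit Cdc20 and Birc5 (survivin). The list of primitive and visceral endoderm gave 4 of 46 (Lrp2, Gata6, Dkk1 and Pth1r), that of immediate early and stress genes 4 of 48 (Mt2, Ccn1, Gpx1 and Mt1), that of sterol and lipid metabolism 3 of 40 (Fdps, Nsdhl and Insig1), and that of germline and 2-cell genes 2 of 32 (Zscan4c and Tcstv3). The neural list gave 2 of 44, the neurofilament genes Nefl and Nefm, and the list of actin and intermediate filament genes 2 of 50, Vim and Myl9. Single members came from the lists of fibroblast and feeder cells (Vim), endothelium and blood (Etv2), Wnt (Dkk1), BMP, TGF-beta and Nodal (Smad6), matrix (Ccn1), adhesion (Gja1), interferon (Cxcl10), chromatin (Dnmt3b) and solute carriers (Slc35g1). No member came from the lists of trophoblast factors (26 genes in the table), trophoblast keratins, hormones and proteases (32), pluripotency (31), mesoderm (35), Hox genes (38), the RA pathway (32), FGF signaling (36), Notch and Hedgehog signaling (28), p53 targets (41), hypoxia (35) or imprinted genes (41), nor from the collagens, keratins or Zfp genes. The summed level of 32 trophoblast keratin, hormone and protease genes went from 30286 to 32067 at 0 hr to 699281 to 770500 at 120 hr, higher at each later time, and that of 31 pluripotency genes went from 320453 to 349867 down to 88140 to 98049.

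Further groups of like function were formed after the values were seen and are given as a description. Some of their genes, such as Zscan4c, Tcstv3 and Myl9, are also in the lists above. Cell division genes beyond the list, such as Ska2, Mad2l1, Spc25, Nuf2 and Kif2c of the kinetochore and spindle, numbered 11 and lay 0.42 to 1.01 above 0 hr at the higher of the 2 times and the 120 hr values lay lower, by -1.11 to -0.67 on the log2 scale. Genes of ribosome assembly and RNA processing, such as Wdr12, Lyar, Nhp2, Pno1, Gemin6 and Snrpa1, numbered 13, and 10 of them were highest at 24 hr. Mitochondrial proteins (Mrpl11, Mrpl17, Mrpl18, Mrpl34, Ndufab1, Ndufaf2, Cycs and Timm21) numbered 8 and lay 0.67 to 1.93 above 0 hr. Genes known from muscle (Fhl1, Tnnt1, Actn2, Myh6 and Myl9) numbered 5. The 2-cell genes Zscan4c, Tcstv3 and AF067063, of which Zscan4c marks rare cells in ES cultures, were all highest at 48 hr, lay only 0.50 to 0.74 above 0 hr, and had the steepest loss of these groups, with changes to 120 hr of -3.01 to -2.20. Zscan4c and Tcstv3 belong to clusters of near-identical copies, and Rps25 and Hnrnpa1 have many processed copies, so their probes may read several genes.

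On the late arrays 96 hr was compared with 24 hr, times whose arrays the rule did not use. The comparison used limma with all 18 arrays in the fit, those of the rule among them. It was adjusted over 21042 gene probes, with a call at an adjusted p of 0.05 and 1.5-fold. The rule asked for a fall late in the same course, and these times lie next to those it used. It thus favors lower values at 96 than at 24 hr, so the shares are a description and no independent check of the decline. Of 149 members 74 were lower at 96 hr, or 49.7%, against 5.26% of all gene probes and 6.24% of the table probes. Higher at 96 hr were 8 members (5.37%, against 8.11% and 9.88%), and 67 were not called. The median member changed by -0.57 and the median gene probe by 0.0064 on the log2 scale.

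The greatest fall was that of Smad6, an inhibitor of BMP signaling. It read 2.95, 2.96 and 2.66 at 24 hr and 0.35, 0.44 and 0.42 at 96 hr, a change of -2.45 ± 0.11 (SE, adjusted p = 1.01e-11, limma). Its 24 hr arrays were the highest of the course, above 1.22 to 1.36 at 48 hr. Zscan4c, a gene of the 2-cell embryo, fell by 1.77 ± 0.13 (adjusted p = 4.87e-09), Calcoco2 by 1.66 ± 0.14, the cardiac myosin Myh6 by 1.66 ± 0.08, Vim by 1.65 ± 0.13 and Nudt4, a phosphatase of inositol pyrophosphates, by 1.51 ± 0.09. From the cell cycle list 3 of 6 members fell, near the share of 49.7% over all members: Cdc6 by 1.18, Ccne1 by 1.04 and Cdc20 by 0.79. Over the whole list, 16 of 50 genes were lower and 5 higher. Ccna2 changed by -0.014 (adjusted p = 0.973) and Cdc25a by -0.27 (adjusted p = 0.186). Of the post hoc groups, 8 of 13 ribosome and RNA genes, 4 of 8 mitochondrial ones, 4 of 5 muscle ones and 3 of 3 2-cell ones were lower, and 2 of 11 further cell division genes. These groups are small, and 49.7% of all members were lower. Dnmt3b, a de novo DNA methyltransferase, fell by 1.22.

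Ccn1 and Dkk1 had the greatest rises among the members that were higher at 96 hr than at 24 hr. Ccn1, a matricellular protein, read -2.05, -2.14 and -2.21 at 24 hr and -0.47, -0.07 and 0.10 at 96 hr (1.99 ± 0.12, adjusted p = 1.04e-09), and it is the member whose highest mean was at 96 hr. Dkk1, a secreted Wnt inhibitor, read 0.69, 0.84 and 0.70 and then 2.70, 2.72 and 2.74 (1.97 ± 0.11). Fgfbp1, a secreted carrier of FGFs, rose by 1.60 ± 0.09, the myosin light chain Myl9 by 1.16 ± 0.11 and the lymphotoxin gene Ltb by 0.80 ± 0.07. Cxcl10 was called too (adjusted p = 1.82e-09), with a median Cy3 signal of 480.5 units at 24 hr, under the negative controls, and 592.6 units at 96 hr. LOC666185 (0.70) and L02241 (0.69) complete the 8, and the call of LOC666185 was lost without 1 of the 24 hr arrays (0.55). Klk7 changed by -0.53 ± 0.07, under 1.5-fold.

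RA was compared with LIF in cells of the same line (limma, line as a block, 12 arrays, adjusted over 41006 gene probes). On RA 31 of 145 members were higher, or 21.4%, against 4.64% of all gene probes and 8.07% of the table probes. Lower were 10 members (6.9%, against 1.23% and 1.89%), and 104 were not called. Of the 145 changes, called or not, 70 were positive and 75 negative. The 4 members without an identical probe on these arrays are LOC666185, Mrpl17, Hypk and Rps25. On RA the median member changed by -0.010 and the median gene probe by -0.0051. All 4 lines changed in the called direction in 30 of the 31 and in 10 of the 10. These members were already called in that fit, and the share over all called probes was not counted.

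Among the members that rose most on RA were Fbn2, Pdzrn3, Cxcl10, Gata6, Myl9 and Dkk1. Fbn2, a fibrillin of elastic fibers, read 0.22 in the episomal clone, 0.26 in the integrated clone, 0.39 in MG1.19 and 1.09 in ES 129.3 with LIF, and 3.73, 2.69, 3.58 and 4.21 on RA (3.06 ± 0.15, SE, adjusted p = 4.73e-05, limma). The RA and LIF arrays did not overlap. Gata6, the transcription factor of primitive endoderm, read -1.64, -1.64, -2.06 and -2.33 with LIF and 0.92, -0.09, 0.35 and 0.02 on RA in the same order of lines (2.22 ± 0.19, adjusted p = 0.000314). The ubiquitin ligase Pdzrn3 rose by 2.81 ± 0.27, Cxcl10 by 2.48 ± 0.41, Myl9 by 2.12 ± 0.37 and Dkk1 by 2.07 ± 0.16. With the processed signals of the scanner software, and in the authors' table, Dkk1 rose by 2.94 and Gata6 by 2.87. From the endoderm list 3 of its 4 members rose, Gata6, Dkk1 and the parathyroid hormone receptor Pth1r (0.83), and 14 of all 49 genes of that list did, with 1 lower. Lrp2, the endocytic receptor megalin, changed by 1.30 (adjusted p = 0.0790). Cxcl10 and Myl9 lost their call without MG1.19, at 2.20 and 2.05. Both were also lost, at an unchanged fold, with the error variance of the methods (adjusted p of 0.0582 and 0.0701). In the parental lines alone Cxcl10 changed by 2.11 (adjusted p = 0.0862, limma).

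Of the 15 most prominent members, 14 have a probe on these arrays and 7 rose on RA, against 21.4% of all tested members and 8.07% of the table probes. Cidea read 1.56, 1.81, 1.43 and 0.95 with LIF and 3.24, 3.84, 3.26 and 2.54 on RA, with like changes in all lines (1.78 ± 0.09, adjusted p = 4.37e-05). Gng10 rose by 1.18 ± 0.10 (adjusted p = 0.000262). Vim read -3.42 in the episomal clone, -3.54 in MG1.19 and -2.59 in ES 129.3 with LIF and -1.32, -1.34 and -0.67 on RA, but went from -2.97 to -3.26 in the integrated clone (fitted change 1.48 ± 0.39, adjusted p = 0.0369). Of the fibroblast and feeder list, 13 of 29 genes were higher on RA and 1 lower. Of the actin and intermediate filament list, 35 of 56 were higher and 2 lower. The calls of Calcoco2 (1.67 ± 0.44), Fhl1 (1.41 ± 0.32), Vim and Ptgr1 (0.74 ± 0.16) were each lost when some single line was left out. In those fits Calcoco2 changed by 1.32 to 2, Fhl1 by 1.07 to 1.48, Vim by 1.24 to 1.34 and Ptgr1 by 0.489 to 0.831. Without the line as a block, Calcoco2, Fhl1 and Vim lost their call at an unchanged fold (adjusted p of 0.373, 0.101 and 0.132, limma). Klk7 changed by 0.27 (adjusted p = 0.108), Asb9 by 0.15 (0.848), Hs3st3b1 by -0.05 (0.930), Mt2 by -0.65 (0.140) and Fth1 by -0.17 (0.507), none past the test. Fdps changed by 0.32 (adjusted p = 0.0160), under 1.5-fold, and 12 of 44 genes of the sterol list were higher and 1 lower, among the former Insig1 (0.60), which restrains sterol synthesis.

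Of the 3 genes of the 2-cell group, 2 rose on RA. Tcstv3 read 0.23, 4.28, 0.72 and 1.00 with LIF in the episomal clone, the integrated clone, MG1.19 and ES 129.3, and 1.87, 5.22, 3.06 and 4.24 on RA (2.04 ± 0.39, adjusted p = 0.0101). Its level with LIF was thus far higher in the integrated clone than in the other lines. AF067063 rose by 1.48 ± 0.32 (adjusted p = 0.0166). Zscan4c read 1.61, 5.88, 1.76 and 2.49 with LIF and 3.56, 5.61, 4.61 and 5.81 on RA, higher in 3 lines and not in the integrated clone (1.96 ± 0.63, adjusted p = 0.0753).

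Among the members that fell on RA, Etv2, an ETS factor of endothelial and blood progenitors, read 1.37, 1.59, 2.16 and 2.10 with LIF and 0.64, 0.84, 0.72 and 0.91 on RA (-1.02 ± 0.16, adjusted p = 0.00408, but 0.052 with the error variance of the methods), with no overlap. The ribosome assembly factor Wdr12 fell by 0.68 ± 0.14, the nucleolar protein Lyar by 0.65 ± 0.15, the glutathione cycle enzyme Ggct by 0.64 and Snhg3, a host of small nucleolar RNAs, by 0.63. Mir17hg, the host of a microRNA cluster, Fam72a, Rab26os and BG066504 were also among the 10. Wdr12 lost its call without some single line (-0.693 to -0.505), as did Lyar (-0.566 and -0.554), Ggct (-0.568 and -0.473) and Snhg3 (-0.644 and -0.643). The 10 became 4 without MG1.19, 4 without ES 129.3 and 19 in the parental lines alone. None of the 6 cell cycle members was called on RA, where their changes ran from -0.56 to -0.068.

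With the error variance of the methods 14 members were higher and 1 lower on RA, without the line as a block 18 and 5, and leaving out MG1.19 gave 15 and 4.

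**Figure D3:**
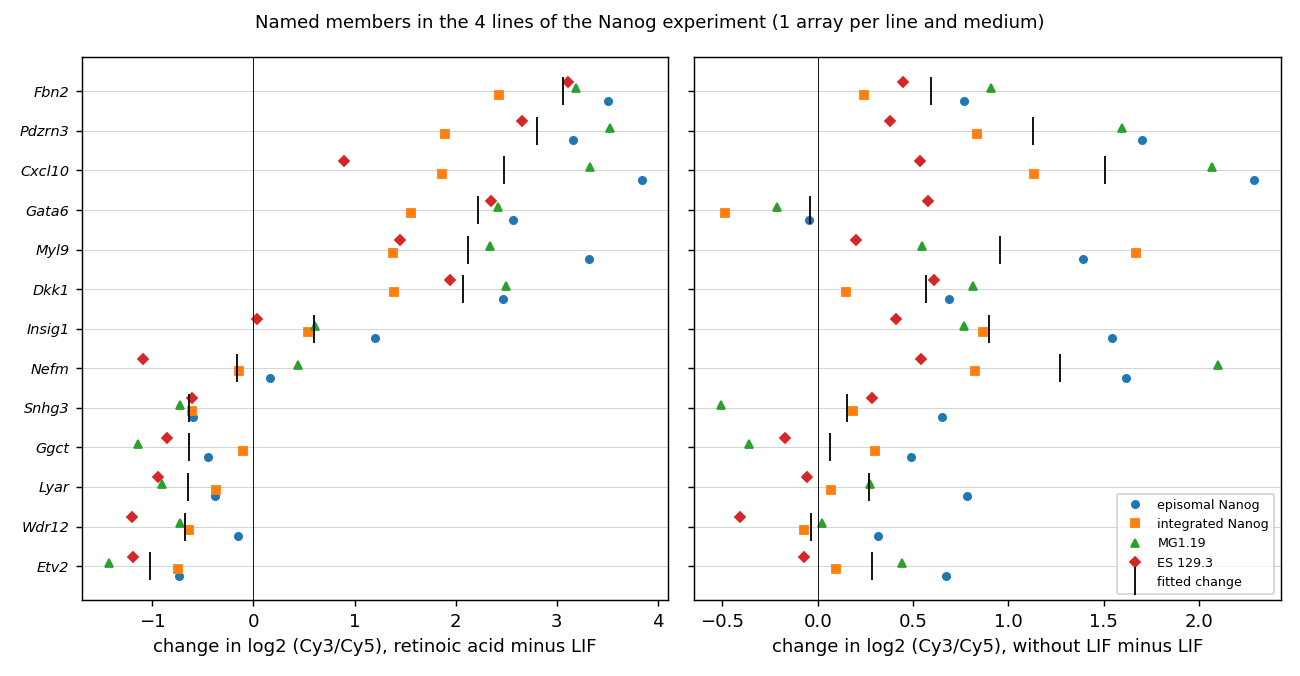
Changes of 13 members in the 4 lines of the Nanog experiment, as log2(Cy3/Cy5) on RA minus with LIF (left, horizontal axis) and without LIF minus with LIF (right, horizontal axis, another range); symbols are lines with 1 array per medium and the bar is the fitted change. Fbn2, Gata6 and Dkk1 are above 0 in all 4 lines on RA, with fitted changes of 3.06, 2.22 and 2.07, while without LIF Gata6 lies on both sides of 0.

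Withdrawal of LIF moved few members. In the same fit 5 of 145 were higher (3.45%, against 0.505% of all gene probes and 0.863% of the table probes), 0 were lower (0%, against 0.532% and 0.845%), and 140 were not called. The median member changed by 0.11 against 0.0059 for all gene probes. Nefm, a neurofilament subunit, read 0.45, 0.77, 0.41 and 1.48 with LIF and 2.06, 1.60, 2.51 and 2.02 without it (1.27 ± 0.25, adjusted p = 0.0481). Its partner Nefl changed by 0.93 ± 0.27 (adjusted p = 0.134). On RA, which shares the LIF arrays, Nefm changed by -0.16 and Nefl by -0.31. Insig1 read -2.33, -2.43, -2.06 and -1.38 with LIF and -0.79, -1.57, -1.29 and -0.97 without it (0.90 ± 0.17, adjusted p = 0.0406). The others were Nudt11 (0.87, with no value for ES 129.3 without LIF), XM_134146 (1.28) and BG082731 (0.69). No call was left without the episomal clone, without the integrated clone or without MG1.19, where Nefm changed by 1.16, 1.42 and 0.995 (adjusted p from 0.138 to 0.31) and Insig1 by 0.682, 0.907 and 0.939 (adjusted p from 0.0693 to 0.297), and 4 calls were left without ES 129.3. Hs3st3b1 went the other way, from 1.97, 0.34, 1.69 and 0.44 to 0.04, -0.33, 0.30 and 0.12 (-1.08 ± 0.23, adjusted p = 0.0577).

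**Figure D4:**
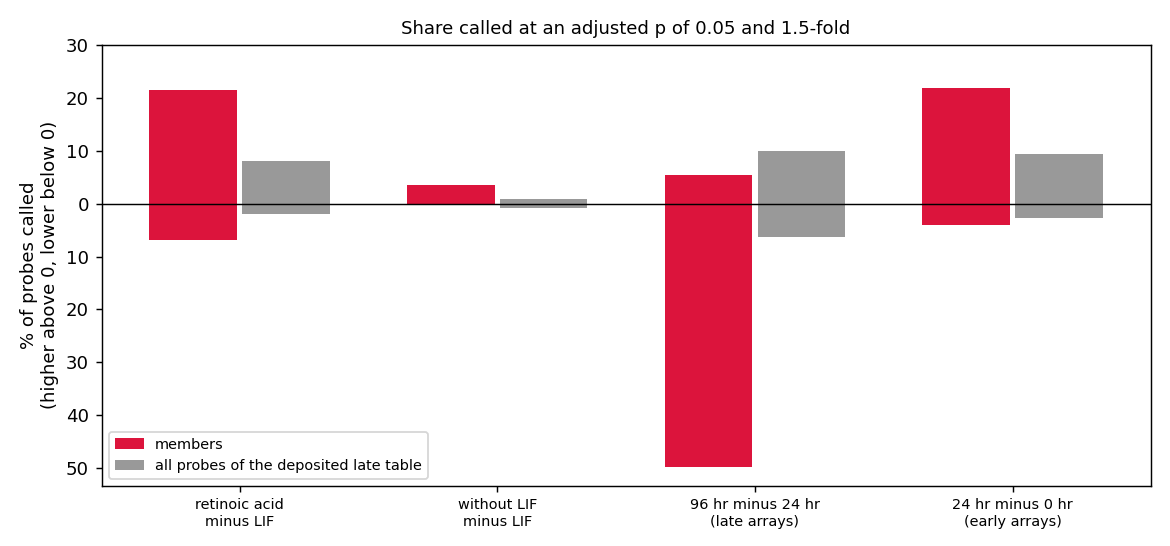
Share of probes called higher (above 0) and lower (below 0), in percent, in 4 comparisons for the members and for all probes of the deposited late table. On RA 21.4% of members were higher against 8.07%, and at 96 hr 49.7% were lower than at 24 hr against 6.24%. The rule that chose the members favors this fall from 24 to 96 hr.

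The early arrays show the first day in another culture. Of 146 members, 32 were higher at 24 than at 0 hr (21.9%, against 7.05% of all 42006 gene probes and 9.28% of the table probes), 6 were lower (4.11%, against 1.97% and 2.78%) and 108 were not called (limma, 10 arrays, 2 per time). With the larger error variance of the methods 0 were higher and 0 lower. Over the same 146 members the change from 0 to 24 hr had a median of 0.11 on the early arrays, with 89 higher, and 0.71 on the late arrays, with 137 higher. The rule asked for low 0 hr means on the late arrays, which favors a large late change, and it did not use the early ones. The 2 experiments differ in array design, culture and number of arrays, which cannot be told apart.

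Camkk2, a kinase that activates AMPK, read -0.09 and -0.01 at 0 hr, 0.04 and 1.15 at 6 hr, 0.33 and 0.43 at 12 hr, then 2.08 and 2.57 at 24 hr (2.38 ± 0.29, adjusted p = 0.00128). Fhl1 rose by 1.68 ± 0.16, Pdzrn3 by 1.49 ± 0.13, Gata6 by 1.24 ± 0.19, Cidea by 1.18 ± 0.10 and Pth1r by 1.07 ± 0.13. With the spread of the arrays equalized, Fhl1 changed by 0.299 (adjusted p = 0.304) and Cidea by 0.0764 (adjusted p = 0.869). Cidea was near its 0 hr level until 6 hr, with 1.77 and 1.85 at 6 hr, 2.55 and 2.36 at 12 hr, then 3.02 and 2.85 at 24 hr, after 1.76 and 1.75 at 0 hr. Hs3st3b1 was already at 2.75 and 2.66 at 6 hr and 3.30 and 3.23 at 12 hr, from 2.31 and 2.30 (24 hr change 1.03 ± 0.12, adjusted p = 0.000921, but -0.34 when the spread of the arrays was equalized). The meiotic recombination factor Psmc3ip (1.75 ± 0.31), Pdcd5, a regulator of apoptosis (1.57 ± 0.19), the licensing factor Cdc6 (1.26 ± 0.21) and Cxcl10 (0.83 ± 0.18) were called higher, but each changed sign under another processing: to -0.13 for Psmc3ip and -0.32 for Cxcl10 in the authors' table, to -0.11 for Pdcd5 after the correction of Cy5 bleaching, and to -0.30 for Cdc6 with equalized spread.

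Fgfbp1 and Selenoh lay on opposite sides of their 0 hr level at 24 hr in the 2 experiments. On the early arrays Fgfbp1 read 2.82 and 2.63 at 0 hr and 1.74 and 1.75 at 24 hr there (-0.98 ± 0.11, adjusted p = 0.00102), and -0.19, -0.40 and -0.03 and then 1.46, 1.53 and 1.31 on the late arrays. The selenoprotein gene Selenoh changed by -0.95 ± 0.10 (adjusted p = 0.000687) from 0.64 and 0.52 to -0.35 and -0.38, and on the late arrays it went from -1.43, -1.35 and -1.48 to 0.44 and 0.68 on the 2 arrays with a value. Ccne1 (-0.61), AF067063 (-0.72), Zscan4c (-0.68) and AK010126 were lower in that early comparison too. Their calls depend on the processing: after the correction of Cy5 bleaching Zscan4c changed by -0.235 (adjusted p = 0.685), Ccne1 by -0.438 and AF067063 by -0.414, none of them called, and the call of Zscan4c was also lost without either 0 hr array (-0.62 and -0.731) or without 1 of the 24 hr arrays (-0.45), and that of Ccne1 without 1 array at 0 hr (-0.57) or 24 hr (-0.539). On the late arrays the means of Ccne1 went from 1.21 to 2.40, of Zscan4c from 1.60 to 2.22 and of AF067063 from 1.66 to 1.24.

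**Figure D5:**
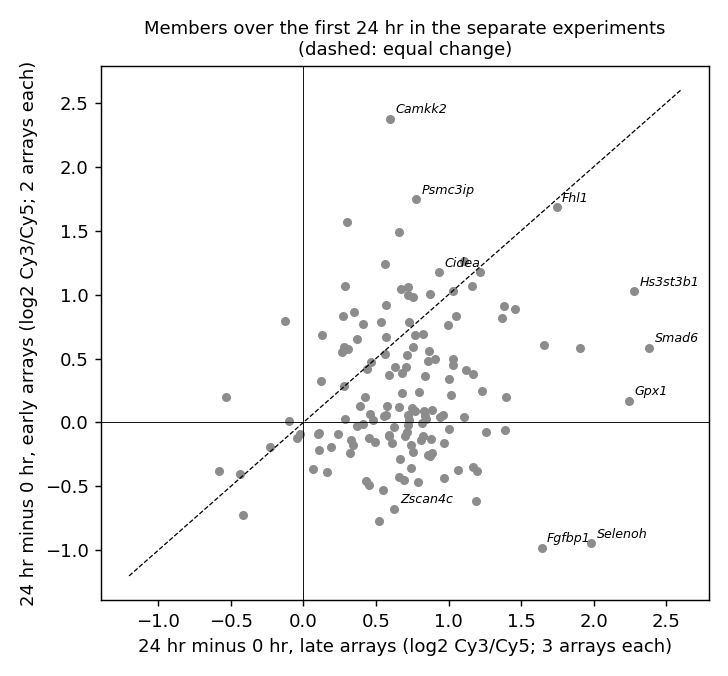
Change of 146 members from 0 to 24 hr of Tet, in log2(Cy3/Cy5), on the late arrays (horizontal axis, 3 arrays per time) and on the early arrays (vertical axis, 2 arrays per time); the dashed line marks equal change. Most points lie right of 0 and below the line, a position that the rule favors because the late 0 hr arrays chose the members, with Camkk2 (2.38) high on the early arrays and Fgfbp1 (-0.98) and Selenoh (-0.95) low on them.

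The count of early calls depends on the processing. It was 12 higher in the authors' table, 0 in either direction with the error variance of the methods, 20 higher and 3 lower after the correction of Cy5 bleaching, 18 higher and 42 lower with equalized spread, and 16 or 20 higher without the first or the second 0 hr array. The fall between 24 and 96 hr on the late arrays was called for 58 to 78 members over these settings.

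Arrays were of like brightness in each experiment. Median Cy3 ran from 596 to 776 units on the late arrays, from 595 to 672 on the early ones and from 531 to 662 in the Nanog experiment, and the background from 365 to 390 units. Replicate arrays of 1 late time correlated with r of 0.96 to 0.995 across probes, those of 1 early time with 0.957 to 0.981, and the 4 lines in 1 medium with 0.78 to 0.965, and no pair held identical values. The number of arrays limits the precision of every value.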

How the data were processed

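RNA was hybridised to 2-color 60-mer arrays of 3 designs. The deposited scanner files hold spot intensities and backgrounds that the authors extracted with Agilent Feature Extraction, and the outlier flags of that software. The header of a late array gives version 7.5.1, and the version was not read for the other arrays. The normalized tables that the authors deposited hold log10 values for the late and early arrays, and the late table chose the members. The authors' table for the Nanog experiment, used only as an alternative, was deposited in log10 too, except that 1 column holds a code for missing in 10 cells and was therefore entered as a score; these cells were left out and its other values read as log10.

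Cy3 and Cy5 were background-corrected (normexp, offset 50) and loess-normalized within arrays in R 4.3.3 with limma 3.58.1. Spots flagged as outliers were set missing and saturated ones kept. Members were linked between designs by identical probe sequence, and named through RefSeq accessions or a gene table of the paper. The members and the gene lists were chosen with earlier results of these data known. Comparisons used limma (lmFit and eBayes, two-sided), with Benjamini-Hochberg adjustment over all gene probes and a call at an adjusted p of 0.05 and 1.5-fold. Line was a block in the Nanog experiment. The scripts were tested on simulated data.

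Named are the 15 most prominent members, up to 4 per gene list, up to 6 per direction and comparison among called members with the same direction in all lines or with groups that do not overlap, and the 3 nearest the threshold on either side. Other named genes were chosen after their values were seen. Values of 1 member that the rule would name are not reported here. Columns of comparisons made by the authors were not used. Same-numbered arrays did not deviate together in every pair (mean r 0.151, from -0.43 to 0.748, late; 0.114, from -0.136 to 0.337, early), so the numbers were not taken to pair samples. Alternatives covered background correction, scaling, the authors' tables, Cy5 bleaching, dim probes, the error variance of the methods (larger of a probe's variance and the mean over 500 probes of like intensity), blocks, parental lines alone, a 2-fold rule and each array left out. The number of arrays limits precision.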

Additional observations from a re-analysis of the deposited data

Results flagged for a closer look

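Each line of the Nanog experiment gave 1 change per medium, and the 4 changes of a named member were compared as a set. There were 43 sets before those with a missing value were left out, among them the sets of LOC666185, which has no probe on these arrays. In 4 sets a single line stood apart relative to the spread of the other 3, which for Snhg3 and Mt2 lay close together, and chance flags about 1 in 20. On RA, Vim changed by -0.289 in the integrated Nanog clone and by 1.92 to 2.2 in the other lines. Without LIF, Asb9 changed by 2.18 in MG1.19 and by -0.0598 to 0.0942 in the other lines. On RA, Snhg3 changed by -0.728 in MG1.19 and by -0.608 to -0.597 in the others. On RA, Mt2 changed by -0.776 in the episomal Nanog clone and by -0.618 to -0.587 in the others. The interaction of medium with Nanog transgene, 2 transgenic against 2 parental lines, was called for 0 of all gene probes (limma). It was thus called for none of the 54 named members, of which LOC666185 could not be tested. The smallest adjusted p over members was 0.724 for RA and 0.815 for LIF withdrawal (limma).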

How the results depend on the processing

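Of 1166 values recomputed under other settings, 995 kept their direction and side of the threshold or moved little, 108 lost a call, 12 gained one, 44 moved and 7 called ones changed sign. The set held 20 members at 2-fold, and 142 to 177 when an array number was left out, of which 123 to 140 are among the 149. Members up on RA numbered 14 with the error variance of the methods, 18 without the replicate block by line, 8 among the 2-fold members, and 15 to 28 with a line left out. Members down on RA numbered 1, 5 and 1 under the same 3 settings, 19 in parental lines only, and 4 to 14 with a line left out. Members up without LIF numbered 3 with scaling between arrays, 0 with the methods' variance, 0 without the replicate block, 0 in parental lines, 0 among the 2-fold members and 0 to 4 with a line left out. Members down without LIF numbered 1 with processed signals, 1 in the authors' table, 1 in parental lines and 0 to 1 with a line left out. Between 24 and 96 hr the 2-fold members gave 2 up and 11 down. Early members up numbered 18 with scaling, 12 in the authors' table, 20 after Cy5 bleaching correction, 0 with the methods' variance, 9 among the 2-fold members and 16 to 41 with an array left out. Early members down numbered 42, with scaling, 3 after bleaching correction, 0 with the methods' variance, 0 at 2-fold and 3 to 5 with an array left out. With the replicate number as a block, 8 members were up and 73 down from 24 to 96 hr, and 37 up and 6 down on the early arrays. The called values that changed sign were all at 24 hr of the early arrays: Psmc3ip -0.125 in the authors' table and -0.0144 after bleaching correction, Pdcd5 -0.11 after it, Cdc6 -0.296 and Hs3st3b1 -0.34 with scaling, and Cxcl10 -0.324 in the authors' table and -0.104 after bleaching correction. The cause was not tested, beyond the smaller number of members at 2-fold. Scaling between arrays was chosen after seeing the data. Quantile normalization of intensity leaves ratios as they are. A block for scan date could not be fitted, since late and early arrays each had 1 date and those of the Nanog experiment follow the lines. On the late arrays 16.3 to 30.2% of gene probes were under the negative controls.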

Other observations

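With and without LIF the 2-cell members lay higher in the integrated Nanog clone than in the other lines. AF067063 read 2.76 with LIF, 2.39 without it and 4.04 on RA in the integrated Nanog clone, and -0.09 to 0.19 with or without LIF in the other lines. Zscan4c read 5.56 without LIF in that clone and 0.67 to 1.28 in the others, and Tcstv3 4.03 and -0.38 to 0.28. This is 1 clone with 1 array per medium, so no test of the line was made.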
